A study of Drosophila melanogaster with 2 samples.

Results

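The last cluster of single embryos in a pseudo-time series of early Drosophila melanogaster development, which lies around the start of gastrulation, was compared with cluster 7, the cluster before it. The embryos were taken by their place in the deposited table of normalized values, whose columns stand in pseudo-time order. Columns 76 to 84 form the last cluster (9 embryos) and columns 64 and 67 to 75 form cluster 7 (10 embryos), out of 84 embryos in all. The last cluster is numbered 8 in one place of the study and 9 in another.

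All embryos were wild type (WT), came from the inbred Drosophila genetic reference panel (DGRP) 737 line, kept at 25 °C, and were at most about 3 h old by their labels. The last cluster held 5 females and 4 males, 4 embryos from cage A and 5 from cage B, and 3, 1 and 5 embryos collected at 0-1, 1-2 and 2-3 h. Cluster 7 held 7 females and 3 males, 5 embryos from each cage, and 1, 5 and 4 embryos of these intervals. Sex had been read by the authors from the DNA of each embryo with qPCR for the X and Y chromosomes. Within the last cluster the 4 males stand in columns 76 to 79 and the 5 females in columns 80 to 84, so sex and place in pseudo-time cannot be told apart there. Each value is the whole polyadenylated RNA of 1 embryo, so fewer cells of a type and less RNA per cell cannot be told apart.

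Before gastrulation the fly embryo is a syncytium that lives on RNA laid down by the mother. Its nuclei are then enclosed in membranes (cellularization) while the zygotic genome is switched on and the maternal RNA is cleared. At gastrulation the ventral mesoderm and the gut primordia fold inwards, the cells divide again in mitotic domains, the pair-rule stripes hand over to segment polarity and homeotic (Hox) genes, and the first neural stem cells (neuroblasts) leave the ectoderm under the control of the Notch pathway.

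A normalized count is the number of unique molecular identifiers (UMIs, 1 per captured molecule) of a gene per 274491 UMIs of the embryo. Totals ran from 450632 to 948692 UMIs (median 644441) in the last cluster and from 446280 to 2074980 UMIs (median 851130) in cluster 7. At least 1 UMI was found for 6823 to 7152 genes per embryo in the last cluster and for 6494 to 7389 in cluster 7. The totals of 2 and 7 embryos of the last cluster, and of 5 and 5 embryos of cluster 7, equal a barcode total of the first and of the second sequencing library. Embryos were not assigned to libraries, and the part of the library in the results was not tested. Across the 7619 tested genes, Spearman's rank correlation between embryos had a median of 0.964 over the 36 pairs within the last cluster, 0.955 over the 45 pairs within cluster 7 and 0.819 over the 90 pairs between them. These pairs share embryos, and the clusters had been set from the same values.

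A gene of cellularization and a gene of gastrulation are given first to describe the clusters. They are no independent check of time, since the clusters had been set from the same values. The other genes of both kinds are counted below. The transcript of slam, which is needed for the membranes to grow between the nuclei, spanned 0 to 1.41 (median 0.316) in the last cluster, against 1.19 to 198 (median 112) in cluster 7. The only embryo of cluster 7 within the range of the last cluster was column 75, at 1.19. The gene for the gastrulation signal fog spanned 14.6 to 33.5 (median 22.6) in the last cluster, against 3.62 to 18.2 (median 9.23) in cluster 7. In cluster 7 only columns 73 and 75 reached into the range of the last cluster. Column 75, the last of cluster 7 and the only one of it collected at 0-1 h, stood apart from its cluster: it had the highest cluster 7 value for 620 of the 1605 genes called higher and the lowest for 549 of the 1206 genes called lower. This embryo was a male, so it was among the 3 males of cluster 7 in every comparison by sex. Counts without it are given beside the main ones.

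With the embryo totals scaled by TMM factors, 1605 of 7619 genes were called higher in the last cluster than in cluster 7. There were 1206 genes called lower. These are 21.1% and 15.8% of the genes tested. A call needed an edgeR adjusted p under 0.01 and a log2 fold change over 1 in either direction. The median log2 fold change of all genes was 0.00, and TMM scaling centres these values. Relative to all UMIs of the embryo (library totals) the median was 0.08. All 1605 higher genes were called again in that fit, but only 1067 of the 1206 lower genes. Of the genes tested, 223 entered the test only through the last cluster, and 172 of the 1605 genes called higher were among them, so that a difference was built into their selection. Since the clusters had been formed from the same expression values, the groups were not independent of what was tested, and the p-values must be read with that limit. For 1088 genes (14.3%) all embryos of the last cluster lay above all of cluster 7, and for 691 genes (9.07%) all lay below. Without column 75, 1645 genes were called higher and 1245 lower. Male embryos alone gave 925 and 770 calls from 4 against 3 embryos, with column 75 among the 3. There 1603 of the 1605 and 1204 of the 1206 genes kept the sign of their log2 fold change. Within cage A 1604 of the 1605 and all 1206 genes kept their sign, and within cage B all 1605 and all 1206 did. Together the higher genes held 13.3 to 16.8% of the UMIs in the last cluster, against 3.28 to 6.2% in cluster 7, and the lower genes held 5.71 to 7.15% in the last cluster, against 13.1 to 20.7% in cluster 7.

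**Figure D1:**
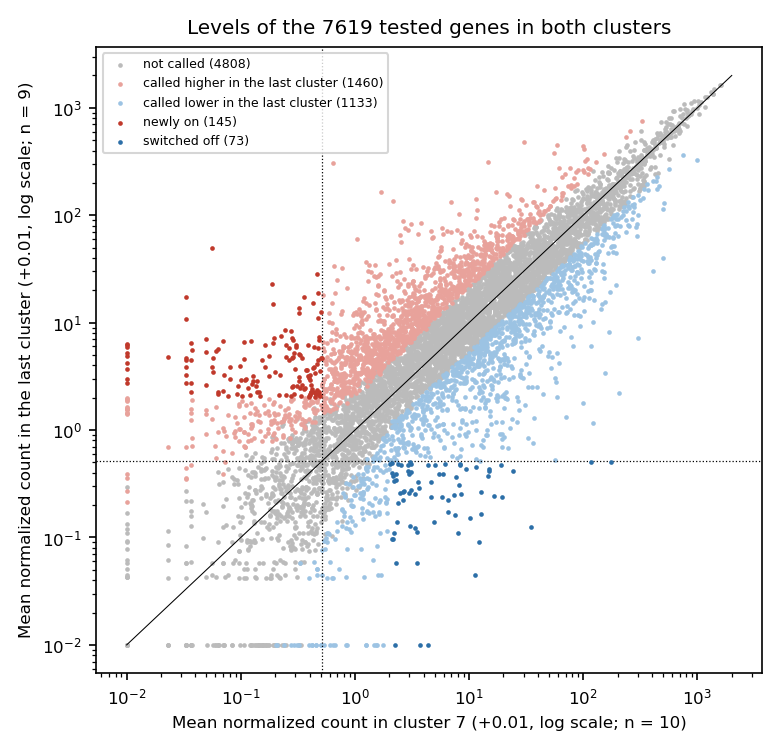
Mean normalized count of each of the 7619 tested genes in the last cluster (vertical axis, 9 embryos) against cluster 7 (horizontal axis, 10 embryos), both on a log scale after adding 0.01. Dotted lines stand at the level of 0.5 used to call a gene off, and the 145 newly-on genes lie in the upper left while the 73 switched-off genes lie in the lower right.

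A gene was named newly on if it was called higher and had a mean below 0.5 in cluster 7 and of at least 2 in the last cluster. This was so for 145 genes. Of them, 107 had a mean below 2 in every cluster before the last, and 38 had reached 2 in one of clusters 1 to 6, of which 37 were maternally deposited (a mean above 1 over the first 10 embryos). As 86 of the 145 genes entered the test only through the last cluster, a difference was built into their selection. The gene just inside the limit of 0.5 was unc-45 with means of 4.63 in the last cluster against 0.499 in cluster 7 and the gene just outside was cmpy with 2.54 in the last cluster against a value just over 0.5 in cluster 7. Summed over the 145 genes, the embryos of the last cluster held 540 to 1034 normalized counts, against 17 to 60.1 in cluster 7. UMIs were found for 142 to 145 of the 145 genes in each embryo of the last cluster and for 24 to 99 genes in each embryo of cluster 7. Without column 75 the same rule gave 162 genes, and with a filter of 10 counts in 5 of the 19 embryos, which tests fewer genes, it gave 66.

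**Figure D2:**
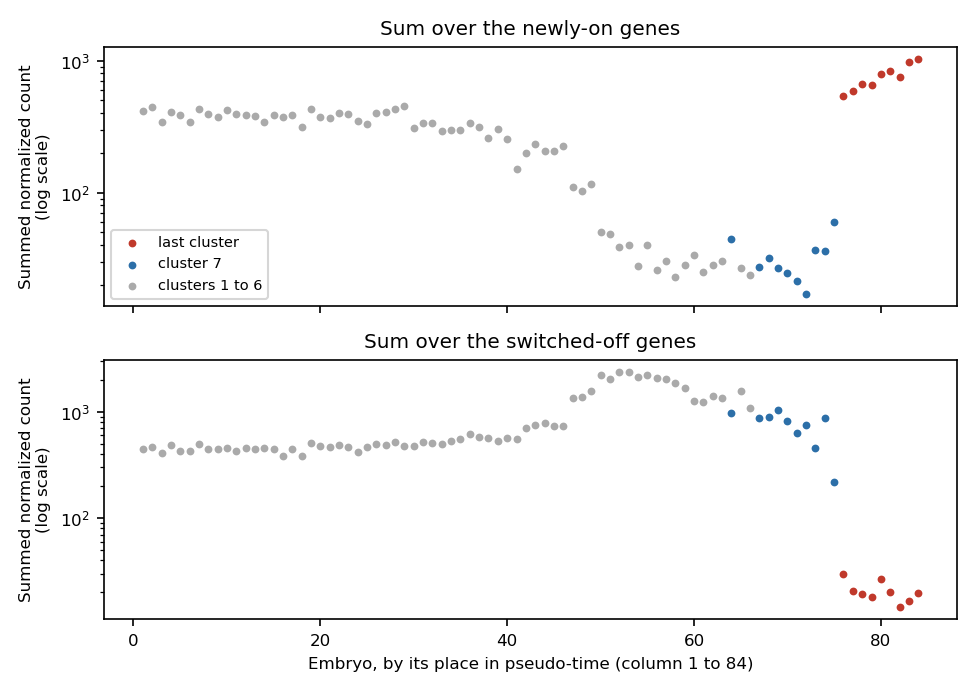
Summed normalized counts (log scale) of the 145 newly-on genes (above) and the 73 switched-off genes (below) in each of the 84 embryos, ordered by place in pseudo-time. Newly-on sums lie between 540 and 1034 in the last cluster and between 17 and 60.1 in cluster 7, and the switched-off sums lie between 14.5 and 29.7 in the last cluster and between 219 and 1050.1 in cluster 7.

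The newly-on gene with the highest level in the last cluster was E(spl)mdelta-HLH, a repressor of the Enhancer of split complex that Notch signalling turns on (chr3R:25997621-25998633, Release 6 of the genome, as all positions here). Its normalized counts were 37 to 83.3 (median 45.4) in the last cluster, against 0 to 0.233 (median 0) in cluster 7. No embryo of cluster 7 came near the lowest of the last cluster, and over all embryos the gene had 1183 UMIs in the last cluster and 2 in cluster 7, a ratio of rates of 827 (exact 95% interval 228 to 6838). The next was the signalling protein gene Wnt4, with 9.80 to 45.1 (median 25.5) in the last cluster, against 0 to 0.921 (median 0.532) in cluster 7. Wnt4 was among the genes that had reached 2 earlier, with a highest earlier cluster mean of 2.34, and was not maternally deposited. The gene ds, for the protocadherin Dachsous of planar cell polarity, spanned 12.3 to 46.3 (median 18.7) in the last cluster, against 0 to 0.791 (median 0.115) in cluster 7. All 3 separated the groups completely.

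The neuroblast gene wor, a zinc finger factor of the Snail family, had 2.53 to 31.1 (median 16) in the last cluster, against 0 to 0.233 (median 0) in cluster 7. The clusters did not overlap for wor, with 399 UMIs in the last cluster against 1 in cluster 7 and a ratio of rates of 558 (exact 95% interval 99.6 to 22091). Counts of Mef2, the muscle differentiation factor of the mesoderm, were 11.2 to 26 (median 17.1) in the last cluster, against 0 to 0.791 (median 0.366) in cluster 7. Mef2 was a returning gene, with a mean of 10.1 in cluster 1 and 0.550 in cluster 6. The Toll-like receptor gene Toll-7 had 11.4 to 17.7 (median 14.9) in the last cluster, against 0 to 0.700 (median 0) in cluster 7. CG12011 was the most uneven of the 10 newly-on genes with the highest levels, at 2.85 to 65.4 (median 6.83) in the last cluster, against 0 to 1.40 (median 0.396) in cluster 7, and its values in the 4 males, in columns 76 to 79 (2.85 to 6.71), lay below those in the 5 females, in columns 80 to 84 (6.83 to 65.4). The remaining 3 of these 10 genes were CG2233 with means of 15.2 in the last cluster against 0.423 in cluster 7, luna with 13.7 in the last cluster against 0.312 in cluster 7 and spdo, a Notch pathway gene of asymmetric divisions, with 12.6 in the last cluster against 0.495 in cluster 7.

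Not a single UMI was found in any embryo of cluster 7 for 9 of the newly-on genes, and 1 to 3 UMIs for 39. Against a floor of 3 UMIs over the whole of cluster 7 (0.0917 normalized counts), CG32137 was at least 66.7-fold higher in the last cluster, Ugt37D1 at least 65.7-fold, CG12643 at least 62.9-fold and CG4194 at least 57.3-fold. The transporter gene Smvt was at least 55-fold higher and MFS1 at least 46.1-fold. The proneural gene ase, which is expressed in neuroblasts, was at least 40.6-fold higher, with 0.316 to 6.09 (median 4.40) in the last cluster, against 0 in all 10 embryos of cluster 7. These limits cover counting error alone.

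The largest fitted rise of all genes was in E(spl)mgamma-HLH (chr3R:25999851-26000761), a further repressor of the same complex. Its counts were 266 to 394 (median 289) in the last cluster, against 0 to 1.81 (median 0.496) in cluster 7 (log2 fold change 8.88 ± 0.22 (SE), edgeR adjusted p = 1.4e-24). Cluster 7 held only a trace of it, and the groups did not overlap. CG34025 had 114 to 234 (median 152) in the last cluster, against 0 to 12.3 (median 0.134) in cluster 7. Its groups did not overlap, and the highest value of cluster 7 stood in column 75. Srr had 0.468 to 17.5 (median 5.21) in the last cluster, against 0 to 0.396 (median 0) in cluster 7. Next, fiz had 4.68 to 21.3 (median 10.2) in the last cluster, against 0 to 0.230 (median 0) in cluster 7. These 2 genes also separated the clusters.

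**Figure D3:**
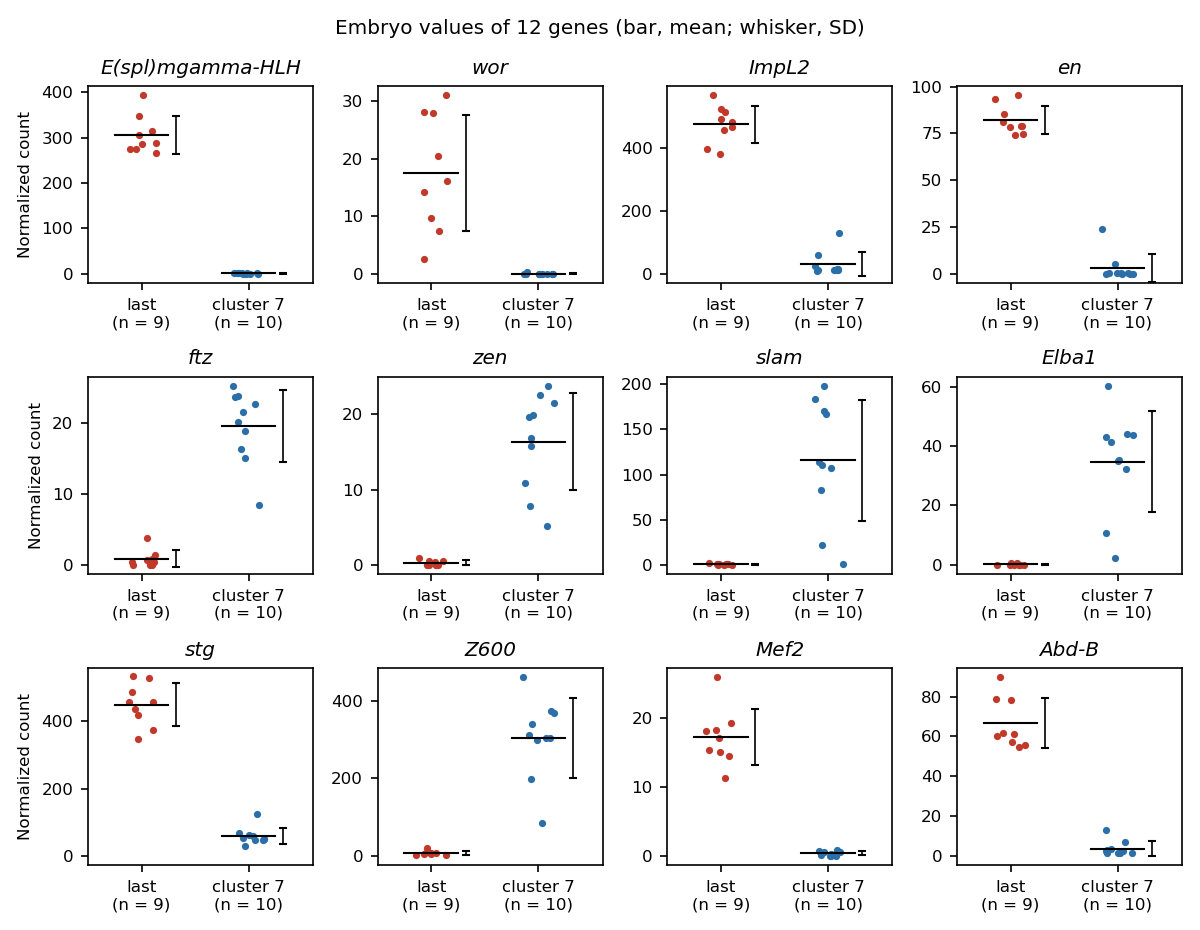
Normalized counts of 12 genes in the single embryos of the last cluster (left, 9 embryos) and cluster 7 (right, 10 embryos), with the mean as a bar and the SD as a whisker. For 11 of the 12 genes the groups do not overlap, and the exception is slam, whose lowest cluster 7 embryo (1.19) lies below the highest embryo of the last cluster (1.41).

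A gene was named switched off if it was called lower and had a mean of at least 2 in cluster 7 and below 0.5 in the last cluster. There were 73 such genes, 49 of them maternally deposited. The gene just inside the limit of 0.5 was slam, with means of 0.497 in the last cluster against 116 in cluster 7, and the one just outside was Vps39, with 0.511 in the last cluster against 12.5 in cluster 7. The summed level of the 73 genes was 14.5 to 29.7 normalized counts in the last cluster, against 219 to 1050.1 in cluster 7, where column 75 was the lowest. Without that embryo 79 genes met the rule, and with the filter of 10 counts in 5 of the 19 embryos 48 did. For 9 of the 73 genes cluster 7 was the cluster with the highest mean, and 33 had theirs in cluster 5.

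CG14915 (chr2L:11071027-11071532) had the largest fitted fall of all genes. Its counts were 0 to 1.49 (median 0.297) in the last cluster, against 51.4 to 235 (median 186) in cluster 7 (log2 fold change -8.41 ± 0.33 (SE), edgeR adjusted p = 1.7e-19). No embryo of the last cluster came near the lowest of cluster 7. Second was Elba1, a subunit of the Elba insulator complex, with 0 to 0.609 (median 0) in the last cluster, against 2.37 to 60.2 (median 38.2) in cluster 7, and 2 UMIs in the last cluster against 1199 in cluster 7. The rate in cluster 7 was 429 (exact 95% interval 118 to 3544) times that in the last cluster. The gene bnk, which holds the actomyosin network of the closing cells in check, had 0 to 1.22 (median 0.373) in the last cluster, against 1.19 to 42.8 (median 25.1) in cluster 7, and here column 75 fell within the range of the last cluster. The homeobox gene zen, which sets up the amnioserosa, had 0 to 0.937 (median 0) in the last cluster, against 5.14 to 23.8 (median 18.2) in cluster 7, with no overlap. Among the other switched-off genes with the highest cluster 7 levels, CG8301 had means of 0.462 in the last cluster against 19.1 in cluster 7. S2P, for a protease that cuts transcription factors out of membranes, had 0.407 in the last cluster against 15 in cluster 7, CG6885 had 0.424 in the last cluster against 14.9 in cluster 7 and CG7737 had 0.362 in the last cluster against 14.6 in cluster 7.

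No UMI was left in the last cluster for 3 of the switched-off genes. CG7271 and CG32984 were at least 37.7-fold and 30.8-fold lower there than in cluster 7, against a floor of 3 UMIs over the last cluster (0.128 normalized counts). CG43184 kept 1 UMI over the 9 embryos, against 372 UMIs in cluster 7. CG43725 had 0 to 0.429 (median 0) in the last cluster, against 0.791 to 27.2 (median 13) in cluster 7. Among genes that were called lower but not switched off, SNCF had 0 to 2.21 (median 1.45) in the last cluster, against 68.4 to 184 (median 116) in cluster 7. The zinc finger gene term had 0 to 4.75 (median 2.44) in the last cluster, against 110.4 to 259 (median 209) in cluster 7. CG34214 had 0.868 to 2.85 (median 1.72) in the last cluster, against 28.1 to 170.4 (median 98.5) in cluster 7. None of these 3 overlapped between the groups, nor did CG15876, with means of 0.513 in the last cluster against 56.4 in cluster 7.

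Of the 5 tested cellularization genes, 4 were called lower and 0 higher, with a median log2 fold change of -5.85. Besides slam and bnk these were dunk, with 1.32 ± 0.909 in the last cluster and 70.5 ± 31.1 in cluster 7, and halo, which steers the transport of lipid droplets, with 77.4 ± 14.4 in the last cluster and 293 ± 118 in cluster 7 (SD, n = 9 and 10). All 4 tested genes of the Elba complex and its partner were called lower (median -5.63). Elba2 averaged 2.00 ± 0.653 in the last cluster and 58.8 ± 20.6 in cluster 7, and Elba3 averaged 0.228 ± 0.318 in the last cluster and 19.5 ± 10.3 in cluster 7. The partner insv averaged 12.5 ± 2.36 in the last cluster and 61.1 ± 17.5 in cluster 7.

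Of 11 genes of gastrulation signalling and apical constriction, 3 were called higher and 1 lower, with a median of 0.19. These are 27.3% and 9.09%, beside 21.1% and 15.8% among all genes tested. Toll-6, a Toll-like receptor of the trunk stripes, rose most, with 46.3 to 81.8 (median 66.4) in the last cluster, against 0 to 11.1 (median 1.34) in cluster 7. Next was fog (log2 fold change 1.24 ± 0.21 (SE), edgeR adjusted p = 4.6e-06). The receptor gene Tl of the dorsoventral axis was lower (-1.59). Of the 5 tested Toll and Toll-like receptor genes, Toll-6 and Toll-7 were higher and Tl was lower.

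Gap genes, which divide the embryo into broad domains, were lower in 6 of 7 tested cases and higher in 0, with a median log2 fold change of -1.18. The terminal gap gene tll fell most, with 5.64 to 13.1 (median 9.14) in the last cluster, against 17 to 72.8 (median 50.2) in cluster 7. Then kni, knrl, gt, hb and hkb followed, with log2 fold changes of -1.72, -1.35, -1.18, -1.16 and -1.14. The gene Kr was not called (-0.36).

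Of 11 pair-rule genes, which are expressed in every other segment, 7 were lower and 3 higher (median -1.38). The stripe gene ftz had 0 to 3.79 (median 0.440) in the last cluster, against 8.45 to 25.1 (median 20.8) in cluster 7, and eve had 0 to 3.79 (median 2.34) in the last cluster, against 7.90 to 39.2 (median 18.5) in cluster 7. The groups did not overlap for either. The other lower members were prd (-3.55), opa (-2.70), h (-2.66), odd (-1.38) and run (-1.18). The 3 that were higher were drm (3.40) and sob (1.59), both of the odd-skipped family, and slp2 (1.78), whereas slp1 had a log2 fold change of 0.96 and was not called.

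Segment polarity genes, which fix the borders of the parasegments, were higher in 5 of 8 tested cases and lower in 0, with a median log2 fold change of 2.05. The homeobox gene en had 74.3 to 95.4 (median 79) in the last cluster, against 0 to 24.1 (median 0.347) in cluster 7, and its cluster 7 maximum stood in column 75. Similarly gsb had 64 to 80.2 (median 69.97) in the last cluster, against 0 to 32.4 (median 0.774) in cluster 7, again with its cluster 7 maximum in column 75. The T-box gene mid, at 33.5 to 87 (median 54.2) in the last cluster, against 0 to 66.5 (median 0.927) in cluster 7, overlapped only through that embryo. The ligand gene wg had 174 to 289.6 (median 254) in the last cluster, against 45.5 to 142 (median 55.7) in cluster 7. The ligand gene hh had 12.4 to 21.6 (median 17.5) in the last cluster, against 0 to 7.52 (median 1.21) in cluster 7. Both ligand genes separated the clusters. The hh receptor gene ptc, its effector gene ci and the wg antagonist gene nkd were not called, with log2 fold changes of -0.38, 0.77 and -0.10.

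Hox genes, which give segments their identity, were higher in 7 of 8 tested cases, the trunk gene tsh included, and lower in 0, with a median of 2.69. The most posterior, Abd-B, had 54.9 to 89.98 (median 61.3) in the last cluster, against 1.19 to 13.1 (median 2.26) in cluster 7. At the other end lab, which specifies the intercalary segment, had 15.3 to 24.3 (median 17.7) in the last cluster, against 0 to 2.77 (median 0.541) in cluster 7, and Scr, of the labial and first thoracic segments, had 2.58 to 8.09 (median 4.40) in the last cluster, against 0 to 0.817 (median 0) in cluster 7 and was newly on. For these 3 genes the clusters were apart. Antp averaged 111 ± 20.7 in the last cluster and 11.8 ± 8.00 in cluster 7, and abd-A averaged 28.8 ± 6.70 in the last cluster and 6.91 ± 3.18 in cluster 7. Ubx averaged 12.9 ± 3.94 in the last cluster and 2.62 ± 0.419 in cluster 7 (SD, n = 9 and 10). The trunk gene tsh had a log2 fold change of 1.59. Dfd was not called (log2 fold change 0.50 ± 0.25 (SE), edgeR adjusted p = 0.078), with 3.65 to 12.3 (median 8.57) in the last cluster, against 1.22 to 11.5 (median 4.00) in cluster 7.

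Of 18 tested genes of Notch, its ligand and regulators and of the Enhancer of split and Bearded complexes, 12 were higher and 0 lower, with a median log2 fold change of 2.17. The helix-loop-helix repressors differed in level. Below E(spl)mgamma-HLH stood E(spl)m5-HLH with 104 to 199.6 (median 135) in the last cluster, against 19.1 to 66.1 (median 23.2) in cluster 7, and E(spl)m7-HLH with 71.9 to 104 (median 88.1) in the last cluster, against 12.5 to 25.3 (median 18.3) in cluster 7. E(spl)m8-HLH had 13.7 to 29.2 (median 23.1) in the last cluster, against 0.608 to 3.96 (median 2.54) in cluster 7. All embryos of the last cluster exceeded those of cluster 7 for these 3 genes. The lowest were E(spl)mbeta-HLH with means of 6.56 in the last cluster against 0.0966 in cluster 7 and E(spl)m3-HLH with 3.28 in the last cluster against 0.0608 in cluster 7. Also higher were 4 members of the Bearded family, which hold back the ubiquitin ligase Neuralized. E(spl)m4-BFM had means of 416 in the last cluster against 102 in cluster 7, E(spl)malpha-BFM 133 in the last cluster against 6.89 in cluster 7 and E(spl)m2-BFM 60.5 in the last cluster against 1.03 in cluster 7, and Brd, at 538 in the last cluster against 236 in cluster 7, passed with a log2 fold change of 1.07. Tom, Ocho and BobA passed on the adjusted p alone, with log2 fold changes of 0.68, 0.64 and 0.89, as did the ligand gene Dl with 0.66. The gene neur itself, at 74.6 in the last cluster against 76.5 in cluster 7, was not called either.

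Among 20 proneural and neuroblast genes 14 were higher and 1 was lower (median 2.15). In the achaete-scute complex, whose factors make ectoderm cells competent to become neural, ac had 23.4 to 36.1 (median 26.2) in the last cluster, against 0 to 4.35 (median 1.34) in cluster 7. Its neighbour sc had 16.1 to 41.2 (median 21.9) in the last cluster, against 1.84 to 6.73 (median 3.10) in cluster 7. The neuronal zinc finger gene scrt had 52.2 to 101 (median 68.6) in the last cluster, against 1.09 to 4.31 (median 2.87) in cluster 7. Each of these 3 genes separated the clusters. The RNA-binding protein gene cpo was newly on with means of 4.70 in the last cluster against 0.272 in cluster 7. The lower gene, dpn, is a neuroblast factor that also acts in sex determination and is expressed in early stripes, and had 43.3 to 63.3 (median 54.4) in the last cluster, against 106 to 137 (median 112) in cluster 7.

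In the mesoderm list, 9 of 18 genes were higher and 0 lower (median 0.75). These included the heart and visceral muscle factor tin, with 20.3 to 30.5 (median 24.6) in the last cluster, against 0.233 to 5.54 (median 0.653) in cluster 7. The cadherin gene CadN had 26.2 to 44.9 (median 34.2) in the last cluster, against 0.608 to 9.89 (median 1.04) in cluster 7. The visceral mesoderm gene bap was newly on with 0.949 to 8.10 (median 2.24) in the last cluster, against 0 to 0.467 (median 0) in cluster 7. The zinc finger gene zfh1 had 101 to 193 (median 134) in the last cluster, against 0.604 to 56.6 (median 6.29) in cluster 7, where column 75 was the highest. In none of these 4 genes did the groups overlap. The Toll feedback ligand gene wntD averaged 41.5 ± 4.56 in the last cluster and 5.39 ± 2.78 in cluster 7 (SD, n = 9 and 10). The early determinants twi and sna were not called, with log2 fold changes of -0.89 and -0.45. Their means were 129.5 in the last cluster against 222 in cluster 7 for twi and 69.98 in the last cluster against 88.4 in cluster 7 for sna.

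Of 8 genes of the gut primordia, 3 were higher (37.5%) and 2 lower (25.0%), beside 21.1% and 15.8% among all genes tested. The endoderm factor GATAe was newly on with means of 3.86 in the last cluster against 0.0460 in cluster 7, while bowl and grn had log2 fold changes of 1.80 and 2.08. The hindgut gene byn, at 13.1 in the last cluster against 47.9 in cluster 7, and hkb were lower. Of 3 tested hemocyte genes 1 was higher (33.3%), the glial and hemocyte factor gcm, while srp and ush were not called. The counts of gcm were 29.7 to 61.5 (median 53.3) in the last cluster, against 4.83 to 21.4 (median 8.27) in cluster 7.

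Of 20 dorsal ectoderm and amnioserosa genes 5 were higher, 5 lower and 10 not called, with a median of 0.05. These are 25.0% in each direction, beside 21.1% higher and 15.8% lower among all genes tested. The GATA factor gene pnr had 51.5 to 79 (median 59.2) in the last cluster, against 0 to 25.3 (median 2.45) in cluster 7, and C15, which acts downstream of the Dpp signal in the amnioserosa, was newly on with 2.61 to 10.7 (median 6.61) in the last cluster, against 0 to 2.37 (median 0) in cluster 7. Early genes of BMP signalling were among the lower ones. The ligand gene scw had 0 to 0.859 (median 0) in the last cluster, against 0.396 to 8.87 (median 5.21) in cluster 7, and only column 75 of cluster 7 reached into the range of the last cluster. The gene tsg, a modulator of BMP transport, had 0 to 1.22 (median 0.373) in the last cluster, against 2.39 to 6.77 (median 5.38) in cluster 7, without overlap. Both were switched off, as was zen.

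In the trachea and epidermis list 4 of 7 genes were higher and 1 lower, and the newly-on FGF receptor gene btl had 1.83 to 7.03 (median 3.83) in the last cluster, against 0 to 0.700 (median 0) in cluster 7. The tracheal master gene trh had 0.632 to 17.6 (median 4.69) in the last cluster, against 0 to 1.79 (median 0.532) in cluster 7, and vvl averaged 10.2 ± 7.40 in the last cluster and 1.12 ± 0.384 in cluster 7 (SD, n = 9 and 10). The ETS factor gene pnt, an effector of the EGF receptor, had 28.5 to 43.4 (median 31.7) in the last cluster, against 0.807 to 9.10 (median 3.36) in cluster 7. In that pathway 6 of 11 genes were higher and 1 lower (median 1.08), among them its inhibitor genes sty (2.41) and aos (1.55) and its ligand gene spi (1.17). For the Wnt pathway 8 of 11 genes were higher and 0 lower (median 2.14). The heparan sulfate proteoglycan gene dally rose with 27.4 to 55 (median 32.7) in the last cluster, against 0.265 to 3.16 (median 1.19) in cluster 7.

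**Figure D4:**
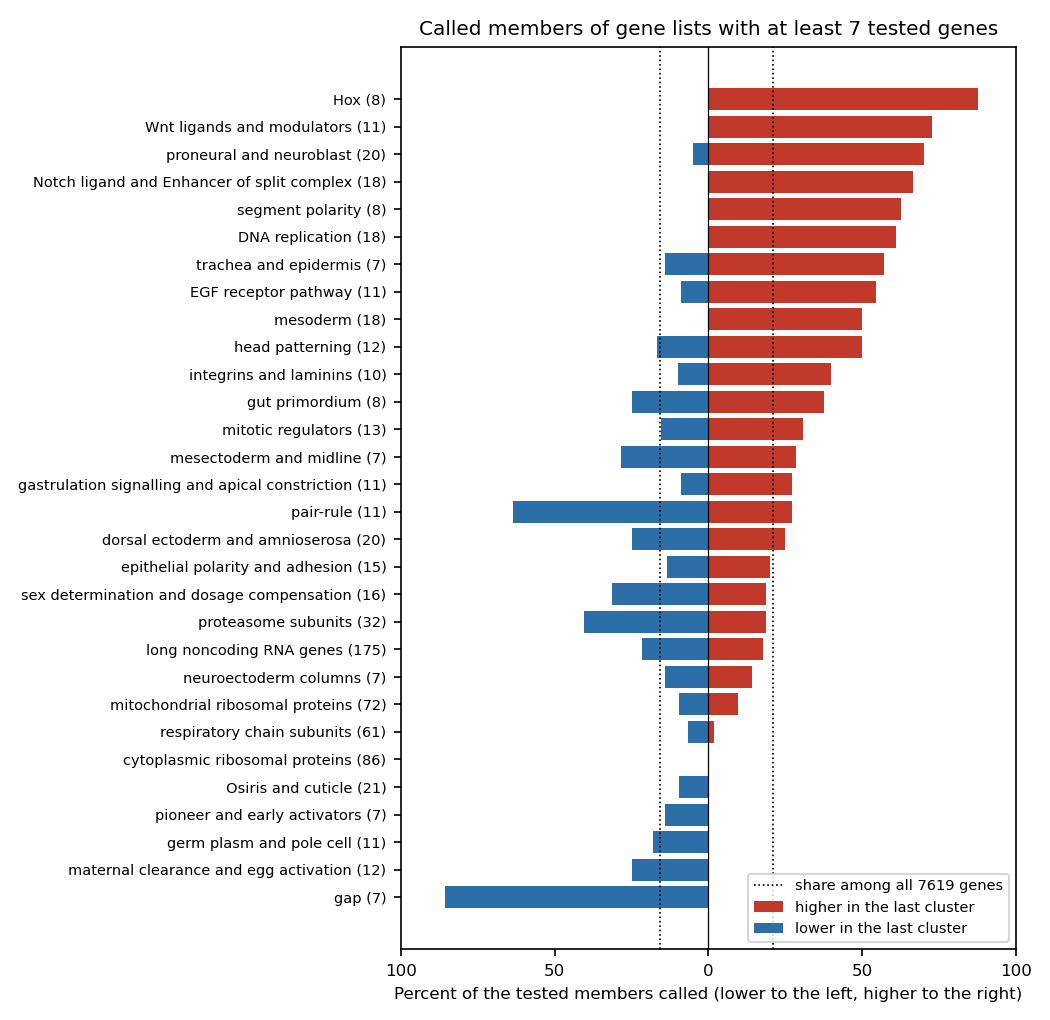
Percent of the tested members of each gene list called higher (to the right) or lower (to the left) in the last cluster, for lists with at least 7 tested genes, with the number tested in parentheses. Dotted lines mark the 21.1% and 15.8% called among all 7619 genes; Hox genes reach 87.5% higher and gap genes 85.7% lower, while 0 of 86 cytoplasmic ribosomal protein genes were called.

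The head patterning list had 6 of 12 genes higher and 2 lower. Of the genes known from eye specification, eya had means of 31.8 in the last cluster against 3.10 in cluster 7, toy 12 in the last cluster against 0.738 in cluster 7 and Optix 10.8 in the last cluster against 2.82 in cluster 7, whereas oc, an early head gene, was lower at 29.5 in the last cluster against 87.5 in cluster 7. In the midline list 2 of 7 genes were higher and 2 lower (28.6% in each direction, beside 21.1% and 15.8% among all genes). The midline master gene sim had 4.72 to 11.1 (median 6.39) in the last cluster, against 0 to 12.7 (median 0.649) in cluster 7 and overlapped only through column 75. In the list of neuroectoderm columns, 1 of 7 genes was higher, Dr with 7.23 in the last cluster against 1.34 in cluster 7, and 1 lower, sog, a BMP antagonist, with 69 in the last cluster against 189 in cluster 7. Both shares were 14.3%, below those among all genes. Of 15 epithelial polarity and adhesion genes 3 were higher and 2 lower. The apical determinant gene crb fell to 29.9 ± 6.14 in the last cluster, against 152 ± 25.5 in cluster 7 (SD, n = 9 and 10). The 3 tested laminin subunits were higher, with LanA at 7.86 in the last cluster against 0.794 in cluster 7, LanB1 at 16.4 in the last cluster against 2.44 in cluster 7 and LanB2 at 35.3 in the last cluster against 10.2 in cluster 7, in a list of 10 integrin and laminin genes of which 4 were higher and 1, the integrin gene scb (-2.59), was lower.

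Among cell cycle genes, the phosphatase gene stg, which releases the cells of the fourteenth cycle into mitosis, had 347 to 534 (median 458) in the last cluster, against 27.4 to 123 (median 51.7) in cluster 7 (log2 fold change 2.83 ± 0.17 (SE), edgeR adjusted p = 3.2e-15). Z600, also known as frs, an inhibitor of mitotic entry, had 1.83 to 18.7 (median 6.83) in the last cluster, against 83.1 to 461 (median 308) in cluster 7 (log2 fold change -5.46 ± 0.30 (SE), edgeR adjusted p = 5.1e-16). Neither gene overlapped between the groups. In the list of 13 mitotic regulators 4 were higher (30.8%), 2 lower (15.4%) and 7 not called, near the 21.1% and 15.8% of all genes, and the median was -0.25. The other higher members were grp (means 41.4 in the last cluster against 9.03 in cluster 7), dap, a cyclin-dependent kinase inhibitor (10.3 in the last cluster against 2.44 in cluster 7), and fzr, an activator of the anaphase-promoting complex (64.6 in the last cluster against 23.8 in cluster 7). The other lower member was twe (0.190 in the last cluster against 1.39 in cluster 7). Of 18 DNA replication genes 11 were higher and 0 lower, with a median of 1.28. They included Cdc45 with 35.2 to 66.5 (median 53.2) in the last cluster, against 2.39 to 9.49 (median 5.87) in cluster 7, RPA1 with means of 33.7 in the last cluster against 5.30 in cluster 7, Mcm5 with 52.9 in the last cluster against 13.4 in cluster 7 and Orc4 with 10.2 in the last cluster against 0.577 in cluster 7. These 4 genes were maternally deposited, with means of 137, 51.4, 39.6 and 15.1 in cluster 1.

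Genes counted as maternally deposited took 92.7 to 93.6% of the UMIs in the last cluster (median 93.3%), against 94.3 to 95.5% in cluster 7 (median 95%). This share includes RNA that the embryo itself made from these genes, which the method cannot tell from maternal RNA. The groups did not overlap, and the difference of the means was -1.75 percentage points (exact permutation test, two-sided, p = 1.1e-05, the smallest that 92378 regroupings can give, and 3.2e-05 when adjusted over 3 tests). Within cage A it was -1.87 and within cage B -1.63 points (exact permutation p = 0.0079 in each). Of the 7619 genes 6296 were maternally deposited. They made up 1159 of the 1605 genes called higher and 1040 of the 1206 called lower.

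Of the 1159 maternally deposited genes that rose, 654 had been below 20% of their cluster 1 level in cluster 7. Those 654 genes stood at a median of 38.3% of the cluster 1 level in the last cluster, against 9.01% in cluster 7, and 335 of all 1159 were above the level of cluster 1. The 1040 that fell had a median of 33% of the cluster 1 level in the last cluster, against 121% in cluster 7, and 602 of them had exceeded cluster 1 in cluster 7. Cluster 7 was the cluster of the highest mean for 235 of these 1040 genes and for 65 of the 166 lower genes that were not maternally deposited. The last cluster held the highest mean of all 8 clusters for 739 of the 1605 higher genes.

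Of 11 germ plasm and pole cell genes 0 were higher and 2 lower (18.2%), beside 21.1% higher and 15.8% lower among all genes tested. The piRNA pathway gene aub had 0.373 to 2.13 (median 0.891) in the last cluster, against 7.52 to 23.9 (median 15) in cluster 7, and pgc, which represses transcription in the pole cells, had means of 4.08 in the last cluster against 13 in cluster 7. The defining pole cell genes nos and vas were not called (-1.07 and -0.73). Among 12 genes of egg activation and maternal clearance 0 were higher and 3 lower (25.0%, beside 15.8% among all genes), plu (-2.34), stc (-1.19) and twe. The embryonic linker histone gene BigH1 fell to 0.670 ± 0.899 in the last cluster, against 5.98 ± 2.51 in cluster 7 (SD, n = 9 and 10), and the other 4 tested histone genes were not called.

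None of 86 cytoplasmic ribosomal protein genes was called by edgeR, with log2 fold changes between -0.39 and 0.71 and a median of -0.14. Of 72 mitochondrial ribosomal protein genes 7 were higher and 7 lower, and of 61 respiratory chain subunits 1 was higher and 4 lower, below the shares among all genes.

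The proteasome, the particle that degrades tagged proteins, consists of a barrel-shaped core and a regulatory cap. Of its 32 tested subunit genes 13 were lower (40.6%) and 6 higher (18.75%), with a median of -0.66. Among all genes tested 15.8% were lower and 21.1% higher, so the share of higher subunit genes was not above that of all genes. The calls split by position in the particle, a division made after the values were seen. Of 13 core subunit genes 12 were lower and 0 higher (median -1.81), and the groups did not overlap for these 12. Of 19 cap subunit genes 6 were higher and 1 was lower (median 0.35). In the core, Prosalpha4 had 9.25 to 16.7 (median 10.4) in the last cluster, against 52.2 to 120.0 (median 91.6) in cluster 7. The catalytic subunit gene Prosbeta1 had 10.4 to 15.4 (median 12.4) in the last cluster, against 51.4 to 98.7 (median 69.9) in cluster 7. Prosalpha2, Prosalpha5 and Prosalpha6 had log2 fold changes of -2.18, -2.32 and -2.12, and the exception was Prosbeta2 with -0.77. In the cap, Rpn11, whose product removes the ubiquitin tag, had 15.5 to 24.6 (median 20.1) in the last cluster, against 3.04 to 10.1 (median 4.93) in cluster 7. The 5 other higher cap genes were Rpn8 (1.54), Rpn7 (1.46), Rpt5 (1.37), Rpn1 (1.31) and Rpn3 (1.01), and the lower one was Rpn12 (-1.43).

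Of 175 long noncoding and antisense RNA genes 31 were higher (17.7%) and 38 lower (21.7%), near the 21.1% and 15.8% of all genes tested (median -0.24). Overlapping genes were not separated beyond the counting of the authors. For lncRNA:CR43837 the values were 0 to 0.632 (median 0) in the last cluster, against 2.37 to 14.8 (median 7.35) in cluster 7.

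The largest differences in normalized counts were in abundant genes. ImpL2, an antagonist of insulin signalling, rose most, with 382 to 571 (median 483) in the last cluster, against 7.25 to 131 (median 13.6) in cluster 7. Next in size were Ama, for a secreted partner of Neurotactin, with 659 to 836 (median 782) in the last cluster, against 191 to 440.3 (median 299) in cluster 7, and stg (above). In none of the 3 did the groups overlap. The citrate synthase gene kdn had 434 to 870.1 (median 634) in the last cluster, against 209 to 307 (median 254) in cluster 7, and the RNA-binding protein gene Imp had 316 to 525 (median 469) in the last cluster, against 68.6 to 142 (median 97.5) in cluster 7. The groups did not overlap for kdn and Imp.

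The largest falls in normalized counts began with wech, with 291 to 363 (median 316) in the last cluster, against 521 to 1358 (median 899) in cluster 7. Prps, of nucleotide synthesis, had 25.8 to 57.1 (median 39.1) in the last cluster, against 332 to 671 (median 501) in cluster 7. Nrt, the gene for Neurotactin itself, had 86.5 to 146 (median 116) in the last cluster, against 394 to 627 (median 505) in cluster 7, so this gene was lower while that of its partner Ama was higher. The DNA-binding factor gene retn had 112 to 152 (median 129) in the last cluster, against 328 to 614 (median 527) in cluster 7. The groups did not overlap for wech, Prps, Nrt and retn, while CG1677, with 294 to 492 (median 379) in the last cluster, against 488 to 1051 (median 741) in cluster 7, overlapped slightly.

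The sexes were compared because females carry 2 X chromosomes and males 1. The master switch gene Sxl had 216 to 286 normalized counts in females of the last cluster, against 447 to 757 in females of cluster 7. In males it had 81.5 to 119 in the last cluster, against 57.9 to 102 in cluster 7. The 2 clusters were apart in females and overlapped in males, and the log2 fold change in females minus that in males was -1.58 ± 0.28 (SE, interaction, edgeR adjusted p = 0.013). For msl-2, whose protein starts dosage compensation in males, males had 17.3 to 20.1 in the last cluster, against 38.2 to 47.4 in cluster 7. Females had 3.83 to 9.55 in the last cluster, against 5.72 to 12.7 in cluster 7, and the interaction was not called (edgeR adjusted p = 0.69). The X-linked RNA lncRNA:roX1 of the dosage compensation complex had 668 to 1205 (median 947) in the last cluster, against 285 to 1193 (median 594) in cluster 7 and was not called (edgeR adjusted p = 0.0658). These roX1 values pool the sexes, whose numbers differ between the clusters, so they do not show a difference between females and males. lncRNA:roX2 was not analysed here. Over all genes 15 of 7619 (0.197%) had an interaction of cluster and sex at an adjusted p below 0.05, and 717 had an unadjusted p below 0.05. At the limit of 0.01 used for the calls edgeR gave 0 genes. Sex and column order go together in the last cluster, so their parts in this interaction cannot be told apart. Column 75, which stood apart from cluster 7, was among its 3 males, and the interaction was not tested without it. The lowest p-values after Ubi-p63E and Sxl belonged to Prx2, bard and Pka-C3. For Ubi-p63E, a polyubiquitin gene, the log2 fold change in females minus that in males was 2.76 (edgeR adjusted p = 0.0130). At an adjusted p below 0.05 DESeq2 gave 34 genes and scaling by library totals gave 5. With cage in place of sex, edgeR gave 0 genes, with 270 at an unadjusted p below 0.05 (241 with library totals).

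**Figure D5:**
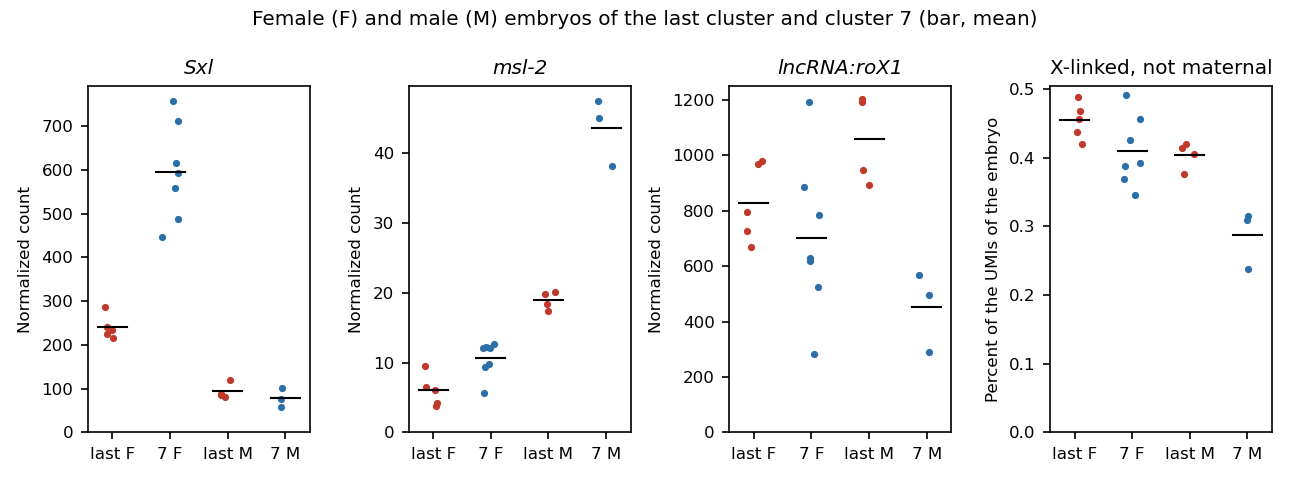
Normalized counts of Sxl, msl-2 and lncRNA:roX1, and the percent of UMIs from X-linked genes that are not maternally deposited, in females (F) and males (M) of the last cluster (5 and 4 embryos) and cluster 7 (7 and 3 embryos), with the mean as a bar. Sxl is lower in females of the last cluster than in females of cluster 7, and msl-2 is lower in males of the last cluster than in males of cluster 7.

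The 200 X-linked genes that were not maternally deposited took 0.404 ± 0.019% of UMIs in males of the last cluster and 0.288 ± 0.042% in males of cluster 7 (SD, n = 4 and 3; exact permutation p = 0.029, the smallest possible, and 0.043 when adjusted over 3 tests). In females they took 0.454 ± 0.026% in the last cluster and 0.410 ± 0.051% in cluster 7 (SD, n = 5 and 7; exact permutation p = 0.11). The ratio of the female to the male mean was 1.12 in the last cluster, against 1.43 in cluster 7; the change of this ratio was not tested. The differences in both sexes depended on the choices made. Over all X-linked genes, maternally deposited ones included, the difference in the share was -0.406 percentage points in males (exact permutation p = 0.31) and -0.101 in females (exact permutation p = 0.59), both in the opposite direction. Without the 10 most abundant X-linked genes the female share was 0.311% in the last cluster against 0.149% in cluster 7 (exact permutation p = 0.0013). Without column 64 of cluster 7 the difference was 0.0580 percentage points (exact permutation p = 0.026). As a share of the UMIs of all genes not maternally deposited it was 6.93% in the last cluster against 8.41% in cluster 7 (exact permutation p = 0.0038), the opposite direction. In males that share was 6.23% in the last cluster against 5.87% in cluster 7 (exact permutation p = 0.31). The gene sog alone took 5.40% of these X-linked UMIs in females of the last cluster, against 18.1% in females of cluster 7. Within the last cluster 120 genes (1.58%) differed between females and males at an adjusted p below 0.01, 60 of them X-linked, against 2 genes (0.0263%), Sxl and msl-2, in cluster 7. With sex and column order the same in the last cluster, the part of each cannot be told apart. The 3 males of cluster 7 include column 75, which stood apart from that cluster.

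The list of 16 sex determination and dosage compensation genes had 3 higher (sc, her and msl-3) and 5 lower (Sxl, run, dpn, gro and mof). These are 18.75% and 31.25%, beside 21.1% and 15.8% among all genes tested. Of 7 pioneer and early activator genes 0 were higher and 1 (14.3%), opa, was lower. The gene zld, the main activator of the zygotic genome, had a log2 fold change of 0.27 and was not called. Of 6 genes of ecdysteroid synthesis 1 was higher (16.7%) and 2 were lower (33.3%). Of 5 genes of yolk nuclei 2 were higher, Srr and CG5171, and 0 lower, with a median log2 fold change of 0.21. The other members of that list, sisA, srp and Cht2, were not called. Of 21 Osiris and cuticle genes 0 were higher and 2 lower.

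Gene structure is given as a description. The median gene length in the annotation was 4801 bp for newly-on genes and 2138 bp for switched-off genes, with 2830 bp over all tested genes. Genes with a single exon made up 15.2% of the newly-on and 30.1% of the switched-off genes, and 9.86% of all. Maternally deposited genes made up 26.9% of the newly-on genes and 82.6% of all tested, so single-exon shares are also given by class. Among genes not maternally deposited the share was 18.9% for newly-on genes and 16.98% for all tested. Among maternally deposited genes it was 5.13% for newly-on, 14.3% for switched-off and 8.37% for all tested genes. Among the 24 switched-off genes that were not maternally deposited the median length was 1033 bp and 15 (62.5%) had a single exon. The median length of all tested genes not maternally deposited was 3270 bp. The 49 maternally deposited switched-off genes were longer, with a median of 3225 bp, against 2765 bp over all tested maternally deposited genes. Newly-on genes had a median of 4323 bp if maternally deposited and 5169 bp if not. On the X chromosome lay 28 of the 145 newly-on and 7 of the 73 switched-off genes, 19.3% and 9.59%, with 17.5% over all genes tested.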

How the data were processed

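Single embryos had been sequenced by the authors with a miniaturised CEL-Seq2 protocol, a 3′-end method with molecular identifiers. The deposited UMI counts per gene and barcode of 2 libraries were made by the authors with STAR 2.7.8a (STARsolo) on BDGP release 6.28. The deposited pseudo-time table is a normalized signal: UMI counts of 7629 genes in 84 embryos, scaled so that every embryo has the total of the shallowest one (274491), with 0.1 added. Here the 0.1 was removed and values were multiplied back to UMI counts, of which 100% were whole to within 0.0001. Clusters and order come from the study, which derived them from the same values, and collection interval and cage were read from the embryo names. Whether the embryos are independent beyond coming from 2 cages is not known, so p-values measure the spread between embryos.

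The 7619 genes with 3 or more counts in 5 or more of the 84 embryos were tested with edgeR 4.0.16 (quasi-likelihood F test, TMM factors, R 4.3.3) on the 19 embryos, with Benjamini-Hochberg adjustment. The 3 single values were tested by exact two-sided permutation (scipy 1.17.1). Ratios of UMI counts carry exact 95% intervals, which cover counting error only. The authors' own comparisons were not used. Genes are named by the files' symbols, 7513 matched to the gene annotation of Release 6 by symbol and 103 by synonym, and 13 were not matched. The test was checked on simulated data. Alternatives were DESeq2 1.42.0, limma 3.58.1, library totals, other filters and covariates, single cages and sexes, and leaving out each embryo.

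Members and gene lists were chosen with earlier results of these data known. The text names the 12 non-overlapping genes with the largest changes in each direction, the 10 newly-on and 10 switched-off genes with the highest levels, up to 5 called members of each list and the members that define it, the dosage compensation genes, the 5 genes with the smallest interaction p and the 5 with the largest differences each way. Of these, some are given only in counts. Kr, twi, sna, nos, vas, zld, fzr, Prosbeta2, the named cap subunits of the proteasome, and unc-45, cmpy and Vps39 at the thresholds were added after their values were seen. The planned search for promoter motifs was not run. A few genes covered by this rule are not reported here.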

Additional observations from a re-analysis of the deposited data

Results flagged for a closer look

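In 387 sets of embryo values (each named gene and summed value in each cluster) the most extreme embryo was compared with the rest by Dixon's ratio. Chance alone flags about 1 in 20 such sets if the values are continuous and normally distributed, and the genes are not independent of each other. For CG43184, E(spl)m3-HLH, GATAe, Srr, bap, btl, fiz and wor all other embryos of the cluster had 0. There any UMI in 1 embryo is flagged, so that rate does not apply. Few UMIs lie behind some other flags too. The flagged cluster as a whole had 3 UMIs for E(spl)mbeta-HLH, 7 for ds, 5 for zen, 3 for scw and 9 for bnk. The column 75 embryo of cluster 7, the last of its cluster in pseudo-time, accounted for most of the cluster 7 values that stood out. It was far above the other embryos of cluster 7 in normalized counts of Abd-B (13.1), Brd (408), C15 (2.37), CG2233 (1.58), CG34025 (12.3), CadN (9.89), E(spl)m2-BFM (4.35), E(spl)m4-BFM (177) and E(spl)m5-HLH (66.1). The same held for E(spl)malpha-BFM (25.3), ImpL2 (131), RPA1 (13.8), Toll-6 (11.1), dally (3.16), ds (0.791), en (24.1) and gsb (32.4). It was also flagged for Srr (0.396), but from 1 UMI. It also stood above the rest for hh (7.52), lab (2.77), pnr (25.3), sim (12.7), sob (13.8), stg (123), tin (5.54), tsh (29.3) and zfh1 (56.6). It was far below the others for CG14915 (51.4), Kr (49.1) and S2P (5.54). Other embryos of cluster 7 stood out with high normalized counts for E(spl)m3-HLH (0.608, column 72), E(spl)mbeta-HLH (0.604, column 67), GATAe (0.460, column 68), Prx2 (24.7, column 74), bap (0.467, column 64), btl (0.700, column 64), fiz (0.230, column 68), pgc (22.6, column 74) and wor (0.233, column 64). In the last cluster a single high embryo was found for BigH1 (2.81, column 77), CG43184 (0.316, column 76), Dl (565, column 79), E(spl)mdelta-HLH (83.3, column 84), Rpn3 (59.6, column 84), Scr (8.09, column 82), Z600 (18.7, column 76), abd-A (45.1, column 84) and bnk (1.22, column 81). The other genes with 1 high embryo there were cpo (10.1, column 84), ftz (3.79, column 76), gt (41.9, column 80), pnt (43.4, column 83), sc (41.2, column 83), scw (0.859, column 83), twe (0.949, column 76) and zen (0.937, column 77).

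For 5 genes the log2 fold change between the clusters differed between the sexes by the interaction test at an adjusted p below 0.05, given here as that of females minus that of males. Sex and column order go together in the last cluster, so their parts cannot be told apart. Column 75 was among the 3 males of cluster 7. It was 2.76 (edgeR adjusted p = 0.0130) for Ubi-p63E, -1.58 (edgeR adjusted p = 0.0130) for Sxl and -1.69 (edgeR adjusted p = 0.0333) for Prx2. It was -2.58 (edgeR adjusted p = 0.0333) for bard and -2.06 (edgeR adjusted p = 0.0333) for Pka-C3. These 5 had the smallest p-values of 15 genes at an adjusted p below 0.05, and 0 genes passed 0.01 in edgeR.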

How the results depend on the processing

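Of 198 combinations of a main result and an alternative, 178 kept their direction and side of the threshold or, for a count of genes, stayed within 1.5 times the main count. Male embryos alone gave 925 higher and 770 lower genes, from fewer embryos and with column 75 among the 3 of cluster 7. A filter of 10 counts in 5 of the 19 embryos, which tests fewer genes, left 66 newly-on and 48 switched-off genes. Leaving out 1 embryo at a time gave 1559 to 1645 higher, 1162 to 1245 lower, 136 to 162 newly-on and 65 to 79 switched-off genes. The difference in the share of UMIs of maternally deposited genes was then -1.82 to -1.68 percentage points. The number of genes with an interaction of cluster and sex at an adjusted p below 0.05 was 15 in edgeR, 5 with library totals and 34 with DESeq2; how many genes these sets share was not counted, and the cause was not tested. Fits with all 84 embryos and with limma moved the median log2 fold change of all genes by over 0.1, to 0.11 and 0.13.

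For the X-linked share, the difference over all X-linked genes was -0.101 percentage points in females and -0.406 in males. As a share of the UMIs of genes not maternally deposited, a choice added after seeing the data, it was -1.48 in females and 0.362 in males, and without the 10 most abundant X-linked genes as well it was 1.63 in females. Without those genes the share of all UMIs differed by 0.162 in females. Leaving out 1 embryo gave 0.0337 to 0.0580 in females, where only the fit without column 64 passed (exact permutation p = 0.026), and 0.0924 to 0.130 in males, where 6 embryos cannot give a p below 0.067. Causes were not tested. Of 189 named genes, signs turned for nkd, with log2 fold changes of 0.00331 (library totals), 0.020 (all embryos), 0.00530 (limma), 0.052 (cage A) and 0.078 (males), and in males for neur (0.029) and Sxl (0.12). No paired analysis was possible because the embryos carry no replicate numbers shared between the clusters. At a median of 644441 and 851130 UMIs per embryo in the last cluster and cluster 7, a gene without UMIs may still be present at up to 0.128 and 0.0917 normalized counts over the cluster.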
